A study of Mus musculus with 4 samples.

Results

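The Notch signalling genes examined here were 4 receptors (Notch1, Notch2, Notch3 and Notch4), 4 ligands (Dll1, Dll4, Jag1 and Jag2) and 2 transcriptional targets (Hes1 and Hey1). They were the 10 genes whose symbol in the deposited table equals one of these names, out of 54152 symbols in all, and all 10 were among the 18530 genes with enough counts to be tested. RNA came from whole uteri at pregnancy day 4, strain C57, and was sequenced as 2 libraries of the p38α genotype labelled dd and 2 of the p38α genotype labelled ff. The series title sets p38α knockout against wild-type uteri, and p38α is the stress-activated kinase encoded by Mapk14. The labels name neither the Cre driver nor the deleted exons nor the cells in which a deletion would occur, and they do not say whether a library came from 1 animal or several. P-values therefore measure only the spread between these samples, which may be technical.

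Totals were 24619850 and 30868922 counts in the libraries labelled dd, and 32451670 and 30202955 in those labelled ff. Mapk14 itself showed no decrease with the dd label, with 2481 and 3429 counts there and 3074 and 2710 counts in those labelled ff (log2 change 0.28, SE 0.09, edgeR adjusted p = 0.12). A count over the whole gene does not show whether some exons are missing, so each direction below rests on the labels dd and ff alone. The uterine homeobox gene Hoxa11 was present at 138.1 ± 0.904 CPM (counts scaled to library size) in libraries labelled dd and 195.9 ± 2.19 CPM in those labelled ff (SD, n = 2 each). Hoxa11 was itself called lower (log2 change −0.50, edgeR adjusted p = 0.0364) and belongs to the stromal markers below. Across all tested genes, edgeR's quasi-likelihood test called 1554 at an adjusted p under 0.05 (8.39%), 716 lower (3.86%) and 838 higher (4.52%) in the libraries labelled dd. That balance turned to 1020 lower and 751 higher when libraries were scaled by their size alone.

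Notch receptors are single-pass membrane proteins that bind Delta-like and Jagged ligands on neighbouring cells. Binding exposes the receptor to an ADAM protease and then to γ-secretase, and the freed intracellular part joins the DNA-binding protein RBPJ and a Mastermind coactivator to switch on genes such as Hes1 and Hey1, which encode repressors. In blood vessels, Notch1 and Notch4 with their ligand Dll4 act in endothelium, while Notch3 is the receptor of pericytes and vascular smooth muscle. In the mouse uterus the pathway is known for its part in the response of stroma and epithelium to early pregnancy, including decidualization.

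Notch3 and the ligand gene Jag2 fell in the libraries labelled dd, and none of the 10 genes was called higher. Notch3 was at 0.467 of its level in libraries labelled ff and Jag2 at 0.705. Hes1, Dll4 and Notch2 had positive log2 changes that did not pass the test. Called decreases numbered 2 of 10, against 3.86% of all tested genes, and called increases 0 of 10, against 4.52%. At an unadjusted p under 0.05, 4 of the 10 genes were lower and 1 was higher, against 14.4% and 14.9% of all tested genes. For increases, the DESeq2 Wald test called 1 (against 8.55% of all tested genes) and limma-trend called 0 (3.7%). For decreases, DESeq2 called 3 (7.65%) and limma-trend 1 (2.95%). The median log2 change of the 10 genes was −0.32, against 0.0022 for all tested genes. By CPM, 5 of the genes had both dd libraries below both ff libraries and 3 had both above, a pattern shown in these directions by 31.3% and 31.6% of all tested genes.

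**Figure D1:**
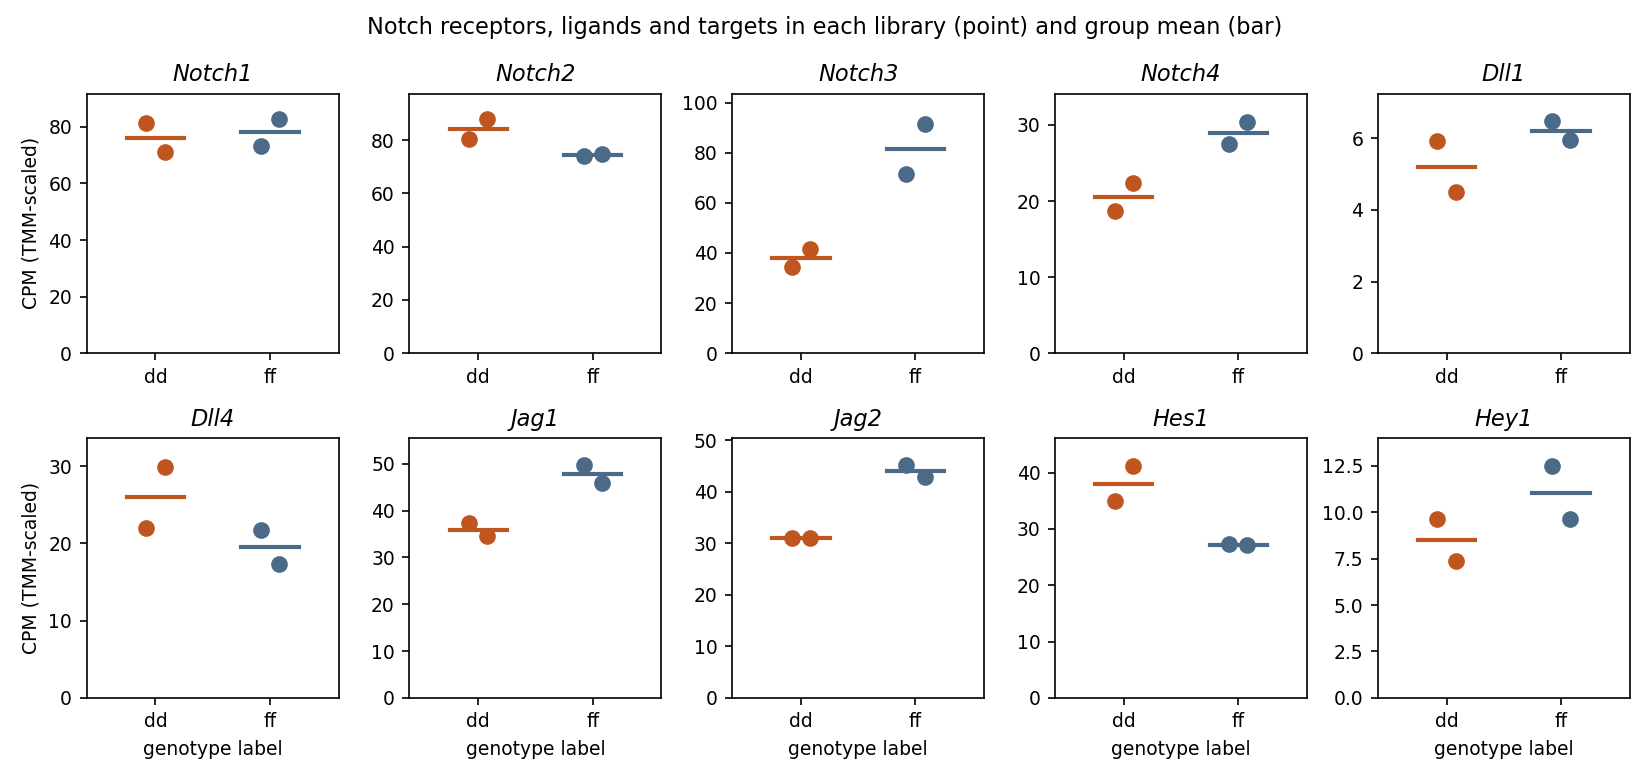
CPM (vertical axis, TMM-scaled, from 0) of each Notch gene in the libraries labelled dd (left, orange) and ff (right, blue), with 1 point per library and a bar at the group mean. Notch3 lies at 34.4 and 41.5 CPM in dd and at 71.3 and 91.3 CPM in ff, while the groups overlap for Notch1.

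Levels can be set against each other between genes only per length, on the FPKM scale of the deposited table. In libraries labelled dd the order of mean FPKM was Hes1, Notch2, Dll4, Jag1, Notch1, Notch3, Jag2, Hey1, Notch4 and Dll1, with 18.7 FPKM for Hes1 and 1.23 FPKM for Dll1. In libraries labelled ff the order was Hes1, Notch3, Jag1, Notch2, Jag2, Notch1, Dll4, Notch4, Hey1 and Dll1, with 13.3 FPKM for Hes1 and 1.47 FPKM for Dll1. Notch3 thus stood at rank 6 in dd, with 4.22 and 5.15 FPKM, and at rank 2 in ff, with 8.82 and 11.3 FPKM. Neighbours in these orders whose libraries overlapped were Notch2 with Dll4, Dll4 with Jag1, Notch1 with Notch3, Notch3 with Jag2, and Hey1 with Notch4 in dd. In ff they were Notch1 with Dll4 and Notch4 with Hey1.

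Among the receptors, Notch3 (Entrez gene 18131, chromosome 17, 32120820 to 32166852, minus strand, mm10) had 812 and 1258 counts in libraries labelled dd and 2374 and 2845 counts in those labelled ff. The groups were well apart, and the 2 ff libraries differed from each other by more than the 2 dd libraries did. Its mean was 37.9 ± 5.06 CPM in dd and 81.3 ± 14.2 CPM in ff (SD, n = 2 each). The log2 change was −1.10 (SE 0.17, 95% interval −1.53 to −0.67, edgeR adjusted p = 0.0314). In the authors' deposited table the fold is 0.467 and the unadjusted p 0.0184. In fits that left out 1 library the log2 change ran between −1.27 and −0.91. The call was lost without dd replicate 1 (edgeR adjusted p = 0.0791), dd replicate 2 (0.0663) or ff replicate 1 (0.0591), and held without ff replicate 2 (0.0494).

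The sequence before the start of Notch3 is shown because this gene had the smallest p of the 10. It is the RefSeq promoter window, build GRCm38.p6, at chr17:32166891-32167140 on the minus strand, cut to the 250 bases before the start. Capitals mark matches on either strand to TGGGAA, the core bound by RBPJ, or to CACGNG, a loose form of the E boxes bound by Hes and Hey repressors.
Notch3: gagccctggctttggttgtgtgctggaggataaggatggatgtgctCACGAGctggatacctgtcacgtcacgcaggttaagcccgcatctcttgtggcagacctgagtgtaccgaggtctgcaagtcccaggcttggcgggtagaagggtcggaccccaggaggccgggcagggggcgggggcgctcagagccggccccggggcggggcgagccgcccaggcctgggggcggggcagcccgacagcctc
The window held 0 matches to TGGGAA, which 21.6% of 32851 RefSeq promoter windows of this length contain, and 1 match to CACGNG, which 23.5% contain. A match to letters is a description and not a binding site.

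Notch4 (Entrez gene 18132, chromosome 17, 34564268 to 34588503, plus strand) is a receptor largely of endothelium. It had 442 and 676 counts in libraries labelled dd and 915 and 948 in those labelled ff. In CPM both dd libraries (18.7 and 22.3) lay below both ff libraries (27.5 and 30.4), but the log2 change of −0.50 did not pass (SE 0.14, edgeR adjusted p = 0.095). Its fitted interval ran between −0.86 and −0.14.

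Notch1 (Entrez gene 18128, chromosome 2, 26457903 to 26516663, minus strand) had 1922 and 2150 counts in libraries labelled dd and 2439 and 2581 in those labelled ff. At 81.3 and 71.0 CPM in dd and 73.3 and 82.9 CPM in ff the groups overlapped. The log2 change was −0.04, with an interval of −0.33 to 0.26 (edgeR adjusted p = 0.861). Notch2 (Entrez gene 18129, chromosome 3, 98013527 to 98150361, plus strand) had 1897 and 2665 counts in dd and 2464 and 2332 in ff. Its log2 change was 0.18, with an interval of −0.05 to 0.41 (edgeR adjusted p = 0.257). For both genes these intervals leave out a decrease of the size measured for Notch3, but whether the receptors differ from one another in their change was not tested.

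As a share of the summed FPKM of the 4 receptors, Notch3 made up 21.5% and 24.4% in libraries labelled dd, against 36.4% and 40.6% in those labelled ff. Notch2 was the largest receptor component in dd, at 37.7% and 38.8%, against 28.3% and 24.9% in ff. Notch1 held 29.0% and 23.7% in dd and 21.2% and 20.9% in ff. The summed FPKM of the receptors was 19.6 and 21.1 in dd and 24.3 and 27.8 in ff, so the larger shares of Notch1 and Notch2 in dd go with a smaller sum.

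**Figure D2:**
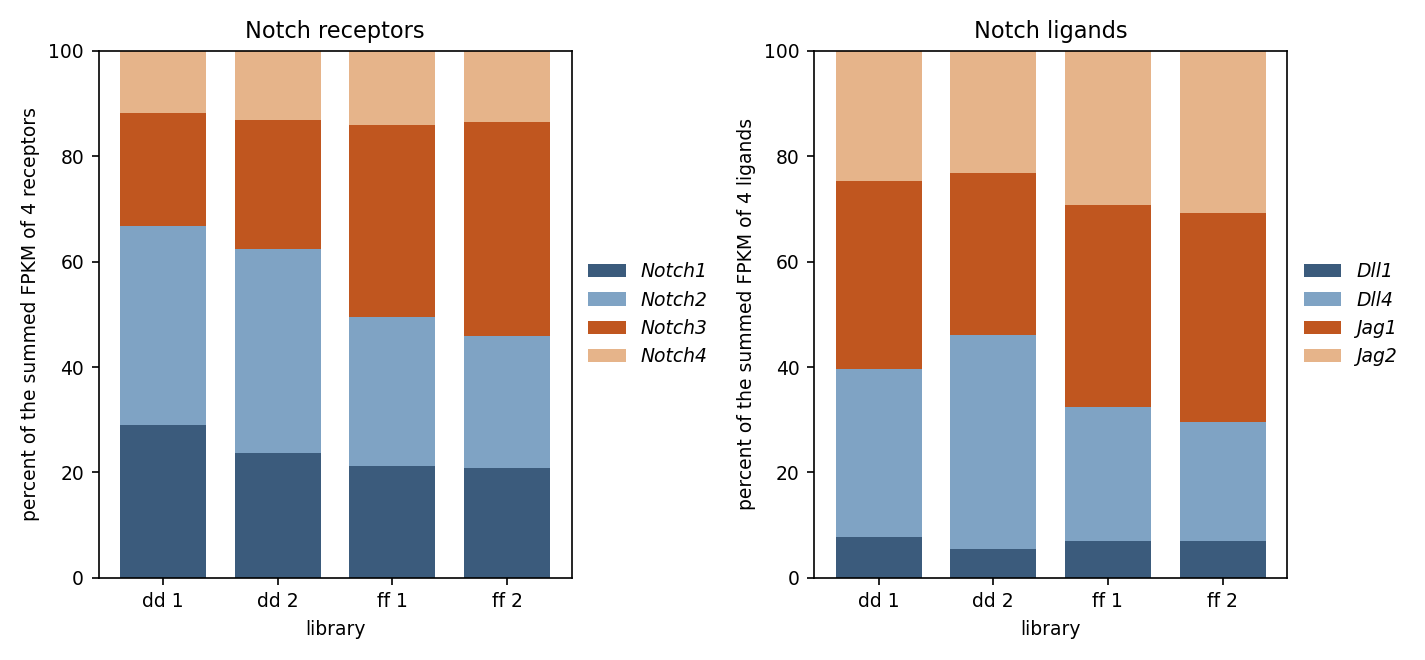
Percent of the summed FPKM (vertical axis) contributed by each Notch receptor (left panel) and each Notch ligand (right panel) in every library, dd libraries left of ff libraries. Notch3 makes up 21.5% and 24.4% of the receptor sum in dd, against 36.4% and 40.6% in ff, and Dll4 makes up 31.8% and 40.5% of the ligand sum in dd, against 25.4% and 22.6% in ff.

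Among the ligands, Jag2 (Entrez gene 16450, chromosome 12, 112907819 to 112929776, minus strand), a Jagged family member, had 733 and 938 counts in libraries labelled dd and 1503 and 1333 in those labelled ff. Scaled to depth it had 31.0 CPM in each dd library, and 45.2 and 42.8 CPM in the ff libraries, so the replicates lay close together and the groups apart. The log2 change was −0.50 (SE 0.09, 95% interval −0.74 to −0.27, edgeR adjusted p = 0.0411). For Jag2 the fold is 0.705 and the unadjusted p 0.276 in the authors' deposited table. The call was lost when any 1 library was left out, with an edgeR adjusted p of 0.132 and 0.141 without dd replicates 1 and 2 and of 0.157 and 0.0818 without ff replicates 1 and 2, although the log2 change stayed between −0.55 and −0.47.

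Jag1 (Entrez gene 16449, chromosome 2, 137081456 to 137116644, minus strand), the other Jagged ligand, had 881 and 1045 counts in libraries labelled dd and 1655 and 1430 in those labelled ff. Both dd libraries (37.3 and 34.5 CPM) were below both ff libraries (49.7 and 45.9 CPM). With a log2 change of −0.41 (SE 0.10) it did not pass (edgeR adjusted p = 0.0711). It passed with the DESeq2 Wald test (adjusted p = 0.0392) and in edgeR with library size as the scaling (adjusted p = 0.0431).

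Dll4 (Entrez gene 54485, chromosome 2, 119325784 to 119335962, plus strand), the Delta-like ligand of sprouting and arterial endothelium, had 521 and 907 counts in libraries labelled dd and 724 and 540 in those labelled ff. The dd libraries lay at 22.1 and 29.9 CPM, and the ff libraries at 21.8 and 17.3 CPM, so that dd replicate 1 and ff replicate 1 were nearly level. The log2 change of 0.41 had an interval of −0.12 to 0.94 and did not pass (edgeR adjusted p = 0.254). Without dd replicate 2 it was 0.17 and without dd replicate 1 it was 0.62.

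Dll1 (Entrez gene 13388, chromosome 17, 15367354 to 15376872, minus strand) was the lowest ligand per length. It had 140 and 136 counts in libraries labelled dd and 216 and 185 in those labelled ff, or 5.93 and 4.49 CPM against 6.49 and 5.94 CPM. The log2 change of −0.26 had a wide interval, −0.84 to 0.33, and did not pass (edgeR adjusted p = 0.498).

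Of the 2 targets, Hes1 (Entrez gene 15205, chromosome 16, 30064384 to 30067796, plus strand), a basic helix-loop-helix repressor, had 824 and 1249 counts in libraries labelled dd and 908 and 845 in those labelled ff. The dd libraries, at 34.9 and 41.2 CPM, were above both ff libraries, at 27.3 and 27.1 CPM. Its log2 change of 0.48 (SE 0.12, 95% interval 0.17 to 0.80) missed the edgeR threshold (adjusted p = 0.0767) and passed the DESeq2 Wald test (adjusted p = 0.0378). Hey1 (Entrez gene 15213, chromosome 3, 8663359 to 8667256, minus strand), a related repressor of vessel development, had 228 and 223 counts in dd and 415 and 300 in ff. At 9.65 and 7.36 CPM in dd and 12.5 and 9.63 CPM in ff its groups touched, and the log2 change of −0.38 did not pass (interval −0.97 to 0.21, edgeR adjusted p = 0.331). The 2 targets thus had estimates of opposite sign, neither past the threshold.

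Of the set, 3 genes lie on the chromosome of Mapk14. Notch3 is 3.37 Mb, Notch4 5.82 Mb and Dll1 13.3 Mb from it, and whether this position bears on their counts was not tested. A gene annotated on the opposite strand overlaps 5 of the 10 genes, and the sources used here do not give whether counting used strand. The partner of Notch3, Gm17276, had 32 and 17 counts in libraries labelled dd and 20 and 19 in those labelled ff. The partner of Dll4, Gm14207, had 80 and 116 counts in dd and 77 and 62 in ff. The partners of Notch1, Notch4 and Dll1 had at most 35 counts in any library.

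**Figure D3:**
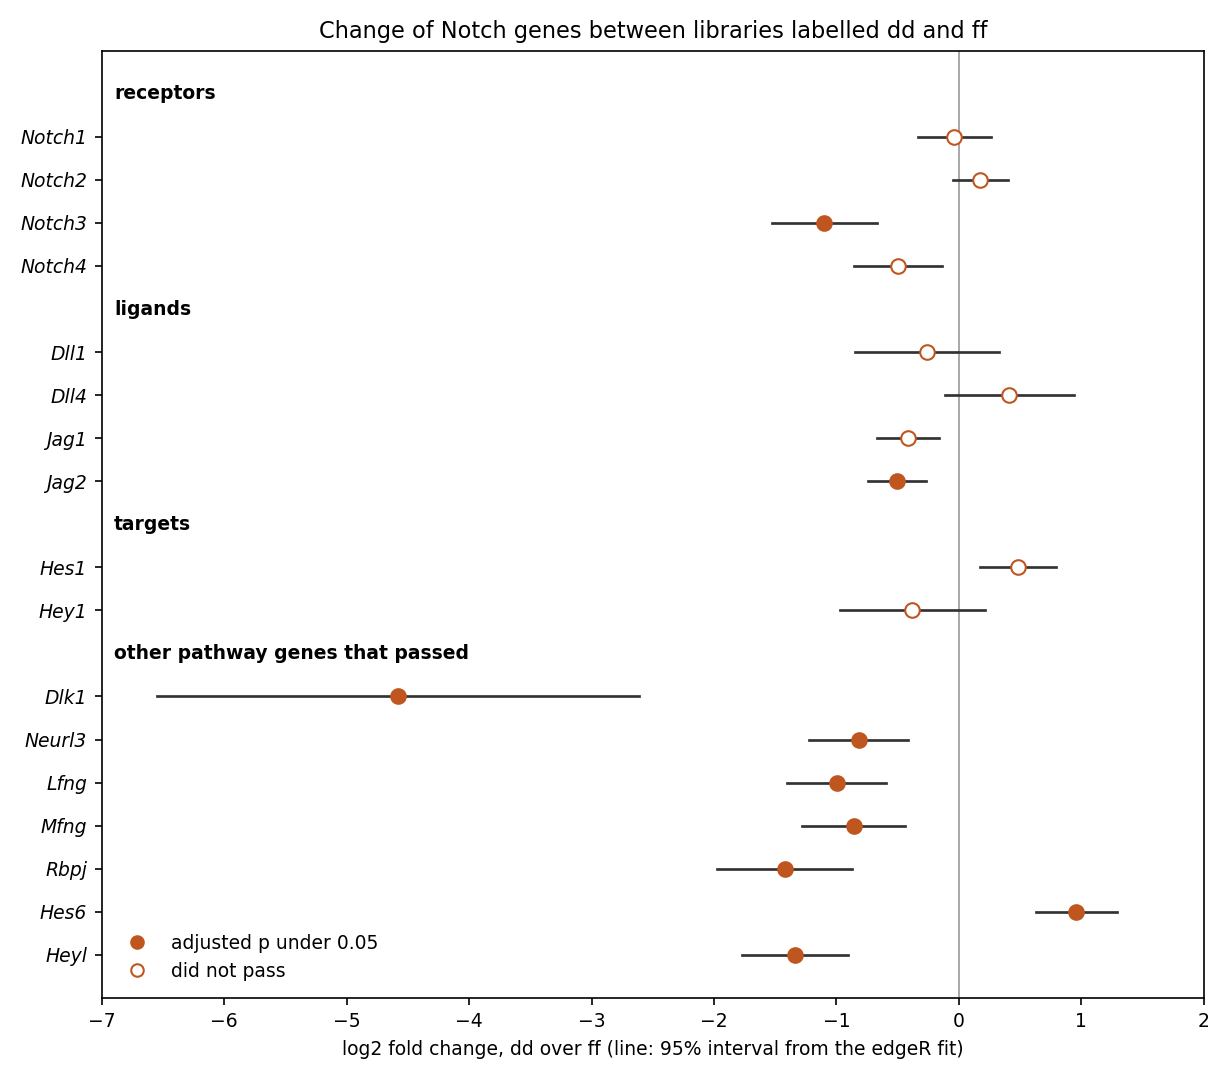
Log2 fold change of dd over ff (horizontal axis) with its 95% interval from the edgeR fit, for the 10 Notch genes by role and for the other pathway genes that passed at an adjusted p under 0.05 (filled points). Notch3 (−1.10) and Jag2 (−0.50) are the filled points among the 10, and Hes6 (0.96) is the filled point above 0. Dlk1, filled at −4.58, entered the test through its counts in ff alone.

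Beyond these 10 genes, 54 other genes of the pathway were listed by their step in it, and 49 of them were tested. In the libraries labelled dd 6 were lower and 1 was higher, against 3.86% and 4.52% of all tested genes, and their median log2 change was −0.07. The 6 were Rbpj, Heyl, Lfng, Mfng, Neurl3 and Dlk1, and the gene that rose was Hes6. Of these, Dlk1 entered the test through its counts in ff alone, so its call is not read as a result. The untested genes Dll3, Dlk2, Hes2, Hes5 and Hes7 had at most 14 counts in any library.

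In the nuclear complex the DNA-binding partner of Notch fell. Rbpj (chromosome 5, 53466152 to 53657362, plus strand) had 1366 and 1145 counts in libraries labelled dd and 4320 and 3921 in those labelled ff. Both dd libraries lay far below both ff libraries, at 47.8 ± 14.2 CPM against 127.8 ± 2.75 CPM (SD, n = 2 each). The log2 change was −1.42 (SE 0.21, edgeR adjusted p = 0.0312), or −1.75 without dd replicate 1 and −1.14 without dd replicate 2. Leaving out ff replicate 1 (adjusted p = 0.0974) or ff replicate 2 (0.0546) ended the call. Its opposite-strand neighbour Gm10441 had 2 and 0 counts in dd and 19 and 8 in ff. Each of the other 10 genes of this list, among them the corepressor gene Ncor1 (0.25) and the Mastermind coactivator genes Maml1 (−0.11), Maml2 (0.03) and Maml3 (−0.17), missed the threshold.

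Sugar-modifying enzymes of the receptor were the next group. Fringe enzymes extend O-fucose on the extracellular part of Notch and so change which ligands it answers to. Lfng had 293 and 430 counts in libraries labelled dd and 967 and 749 in those labelled ff, and its log2 change was −0.996 (SE 0.16, edgeR adjusted p = 0.0332). Mfng had 319 and 403 counts in dd and 908 and 664 in ff, with a log2 change of −0.86 (SE 0.16, edgeR adjusted p = 0.0458). The third fringe gene, Rfng, was at 92.1 ± 2.48 CPM in dd and 88.3 ± 6.61 CPM in ff and did not pass (log2 change 0.06, interval −0.18 to 0.30). Neither Eogt, which adds O-GlcNAc to Notch (log2 change 0.04), nor Pofut1, which adds the fucose (−0.27, edgeR adjusted p = 0.104), passed. The calls of Lfng and Mfng were lost without dd replicate 1, dd replicate 2 or ff replicate 1 (edgeR adjusted p between 0.0795 and 0.142). That of Mfng was also lost with the replicate number as a block (adjusted p = 0.0512) and with limma-trend (0.0563).

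The promoter of Lfng is shown because it is the one among the printable windows of called genes with matches to the RBPJ core, and that of Hes6 because Hes6 is the gene that rose. Both are RefSeq windows of build GRCm38.p6, Lfng at chr5:140607091-140607319 on the plus strand, with 229 bases that lie before the annotated start, and Hes6 at chr1:91414039-91414288 on the minus strand. Capitals mark the same motifs as for Notch3.
Lfng: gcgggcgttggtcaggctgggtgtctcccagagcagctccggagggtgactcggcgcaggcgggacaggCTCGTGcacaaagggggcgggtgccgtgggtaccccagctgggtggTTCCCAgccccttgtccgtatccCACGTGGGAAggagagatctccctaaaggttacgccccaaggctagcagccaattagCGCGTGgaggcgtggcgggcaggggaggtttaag
Hes6: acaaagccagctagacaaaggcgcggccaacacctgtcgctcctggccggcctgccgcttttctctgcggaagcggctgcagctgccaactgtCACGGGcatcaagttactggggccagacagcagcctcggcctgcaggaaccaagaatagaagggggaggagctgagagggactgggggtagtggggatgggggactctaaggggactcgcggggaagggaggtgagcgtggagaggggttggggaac
The Lfng window held 2 matches to TGGGAA, 1 on each strand, and 3 to CACGNG, 1 of which overlaps an RBPJ core in the longest run of capitals. Windows of that length held TGGGAA in 20.0% and CACGNG in 21.4% of 32851 cases. The Lfng window was picked for its TGGGAA matches, so the 20.0% is no test of them. The Hes6 window held 0 matches to TGGGAA and 1 to CACGNG.

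Other genes of the Hes and Hey families, listed as other targets, moved apart. Whether each of them answers to Notch in these uteri was not tested. Heyl, a Hey family gene of vascular smooth muscle, had 271 and 397 counts in libraries labelled dd and 913 and 1080 in those labelled ff, a log2 change of −1.34 (SE 0.17, edgeR adjusted p = 0.0253). Hes6, which encodes a Hes family protein that can act against HES1, had 677 and 972 counts in dd and 492 and 512 in ff, a log2 change of 0.96 (SE 0.13, edgeR adjusted p = 0.0267). In CPM the groups did not overlap for either gene. That holds for 31.3% of all tested genes with dd lower and 31.6% with dd higher. Both calls were lost without dd replicate 1, dd replicate 2 or ff replicate 1 (edgeR adjusted p between 0.0543 and 0.0931), with log2 changes of −1.50 to −1.16 for Heyl and 0.88 to 1.05 for Hes6 over all 4 such fits. Hey2, a vascular Hey gene, had 193 and 322 counts in dd and 176 and 358 in ff and did not pass (log2 change 0.17, edgeR adjusted p = 0.815).

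Of the 7 ligand-related genes tested, 2 were called lower and 0 higher, against 3.86% and 4.52% of all tested genes. Dlk1, an imprinted Delta-like gene whose protein lacks the domain that activates Notch, had 3 and 6 counts in libraries labelled dd and 204 and 62 in those labelled ff. It entered the test through the counts in ff alone, so its call is not read as a result. The log2 change of Dlk1 was −4.58, and −3.55 once ff replicate 1 was left out, which ended the call. Leaving out dd replicate 1 or dd replicate 2 ended the call as well, as did limma-trend (adjusted p = 0.107). Without ff replicate 2 the log2 change of Dlk1 was −5.18. Neurl3, a gene of the neuralized ubiquitin ligase family, had 207 and 317 counts in dd and 562 and 531 in ff (log2 change −0.82, edgeR adjusted p = 0.0464). Leaving out any 1 library ended that call (edgeR adjusted p between 0.0845 and 0.151), as did the replicate block (0.0633) and limma-trend (0.0539). Mib1 and Mib2, the Mind bomb ligases that ready ligands for signalling, missed the threshold, with log2 changes of −0.04 and −0.21. The non-canonical ligand gene Dner had 2 and 7 counts in dd and 34 and 26 in ff. Like Dlk1, it entered the test through the counts in ff alone, so its counts are given without a test.

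Genes of receptor cleavage and of receptor turnover gave no edgeR call, against 3.86% of all tested genes called lower and 4.52% called higher. The 10 cleavage genes, including Adam10 (log2 change −0.14) and the γ-secretase subunit gene Ncstn (−0.01), ranged between −0.14 and 0.30. At an unadjusted p under 0.05, 0 of the 10 were lower and 1 was higher, against 14.4% and 14.9% of all tested genes. DESeq2 called 0 of them, against 7.65% lower and 8.55% higher of all tested genes. Likewise limma-trend called 0, against 2.95% and 3.7%. Among 12 turnover genes 3 were lower and 1 higher at an unadjusted p under 0.05, against 14.4% and 14.9% of all tested genes. DESeq2 called 3 of them lower and limma-trend 1, against 7.65% and 2.95% of all tested genes. The turnover genes with the highest mean CPM, the Deltex gene Dtx3 and the ubiquitin ligase gene Itch, had log2 changes of −0.45 and 0.23 (edgeR adjusted p = 0.0799 and 0.135). Nrarp, a Notch target that restrains the pathway, had 24 and 18 counts in libraries labelled dd and 93 and 73 in those labelled ff and did not pass (log2 change −1.69, edgeR adjusted p = 0.0574).

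Markers of uterine cell types differed in the same libraries. A whole uterus mixes cell types, so fewer cells of a type and less RNA per cell cannot be told apart. Of 16 endothelial markers 13 were called lower and 0 higher, against 3.86% and 4.52% of all tested genes, with a median log2 change of −0.85. Their summed level was 1364 and 1386 CPM in libraries labelled dd and 2345 and 2089 CPM in those labelled ff. For increases among them, 1 had an unadjusted p under 0.05, DESeq2 called 1 and limma-trend 0, against 14.9%, 8.55% and 3.7% of all tested genes. Pecam1, the endothelial adhesion gene, was at 155.0 ± 7.85 CPM in dd and 292.4 ± 39.3 CPM in ff (log2 change −0.92, edgeR adjusted p = 0.0288). Sox17, a transcription factor gene that uterine epithelium also expresses, was at 342.0 ± 20.8 CPM in dd and 199.5 ± 44.4 CPM in ff and did not pass (log2 change 0.78, edgeR adjusted p = 0.0656).

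Pericytes and smooth muscle had 11 markers. Which cells held the Notch3 and Heyl RNA of these uteri was not measured. In the libraries labelled dd 3 of 11 were called lower, against 3.86% of all tested genes. They were the pericyte genes Pdgfrb (log2 change −0.89), Kcnj8 (−0.81) and Abcc9 (−0.99). Called increases numbered 0 by edgeR, DESeq2 and limma-trend, against 4.52%, 8.55% and 3.7% of all tested genes. At an unadjusted p under 0.05, 0 were higher, against 14.9%. The pericyte genes Rgs5 (−1.05, edgeR adjusted p = 0.0535), Higd1b (−0.57, 0.244) and Cspg4 (−0.24, 0.47) did not pass. The summed level of the 11 was 9649 and 5792 CPM in dd and 7562 and 6843 CPM in ff. Most of that sum came from the contractile genes Acta2, at 3673 ± 1281 CPM in dd and 3083 ± 345.9 CPM in ff, and Myh11, at 2067 ± 788.3 CPM in dd and 1790 ± 22.3 CPM in ff. Neither passed, nor did the muscle genes Des (−0.11), Tagln (0.56) and Cnn1 (0.32), and Acta2 and Myh11 are also genes of the myometrium. Whether pericyte and contractile genes differ in their change was not tested.

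Epithelial markers had a summed level of 2812 and 3252 CPM in libraries labelled dd and 1224 and 1456 CPM in those labelled ff. They were higher, with a median log2 change of 0.88 and 5 of 12 called, against 4.52% of all tested genes. The keratin genes Krt8 (1.55) and Krt19 (2.93) were among them. Stromal markers had a summed 9042 and 6799 CPM in dd and 13489.6 and 11959.7 CPM in ff. Called lower were 5 of 12 (median −0.51), against 3.86% of all tested genes. The collagen genes Col1a1 (−0.65) and Col3a1 (−0.86), the highest of these, did not pass. Macrophage markers had 5 of 8 called lower (median −0.89), against 3.86% of all tested genes. Among those called were the complement genes C1qa (−0.90) and C1qb (−0.81). The summed level of the 8 was 203.7 and 196.4 CPM in dd and 337.1 and 364.2 CPM in ff. No marker was at 0 in any library. The part of these differences in the values of the Notch genes was not tested.

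**Figure D4:**
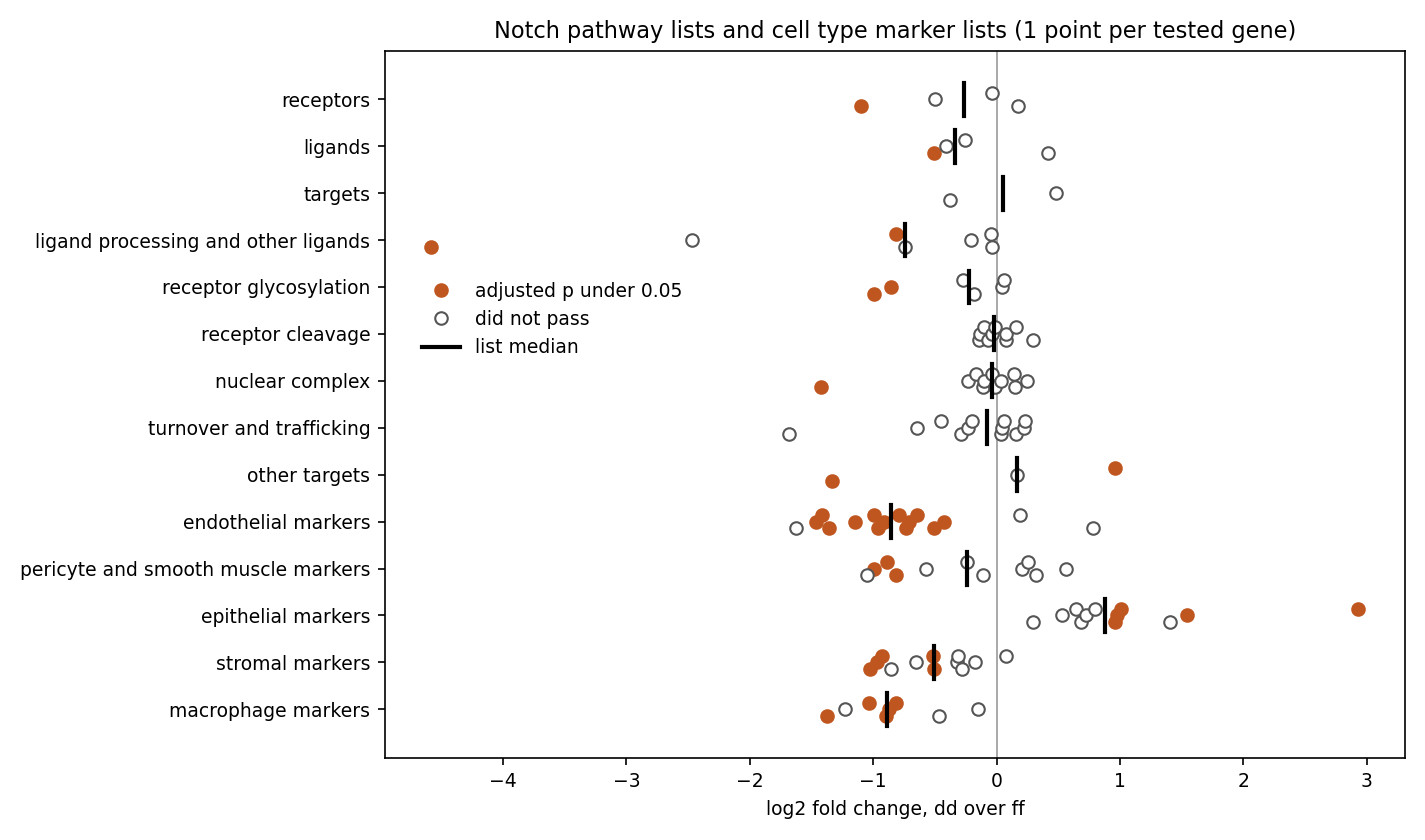
Log2 fold change of dd over ff (horizontal axis) of every tested gene in the Notch lists and the cell type marker lists, with 1 point per gene, filled where the adjusted p is under 0.05, and a bar at the list median. The endothelial median lies at −0.85, the epithelial median at 0.88, and the receptor cleavage genes lie between −0.14 and 0.30.

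Within a library, a Notch gene can be set against a marker list without any scaling between libraries. The log2 CPM of Notch3 minus the mean log2 CPM of the 16 endothelial markers was −0.89 and −0.67 in libraries labelled dd and −0.74 and −0.21 in those labelled ff, so the groups overlapped. For Notch4 it was −1.76 and −1.56 in dd and −2.11 and −1.80 in ff, and for Jag2 −1.03 and −1.09 in dd and −1.40 and −1.31 in ff. Both genes were thus higher in dd on this relative scale, although their CPM was lower. Hes1 stood at −0.87 and −0.68 in dd and −2.12 and −1.96 in ff, and Dll4 at −1.53 and −1.14 in dd and −2.45 and −2.61 in ff. In all, 9 of the 10 genes had both dd libraries above both ff libraries on this scale and Notch3 overlapped. Of all tested genes 79.3% had both dd libraries above and 4.45% both below, since the marker mean itself was lower in dd, so 9 of 10 is near that background and is no result about the Notch genes.

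Notch3 was also set against 6 pericyte genes (Pdgfrb, Rgs5, Kcnj8, Abcc9, Higd1b and Cspg4), a list chosen after the values were seen. All 6 had negative log2 changes. The muscle genes left out were Des (−0.11), Acta2 (0.25), Myh11 (0.21), Tagln (0.56) and Cnn1 (0.32). A list mean that is lower in dd makes any difference taken from it less negative. On this scale Notch3 stood at −0.22 and 0.27 in libraries labelled dd and at 0.27 and 0.45 in those labelled ff. The mean difference of Notch3 was −0.34 on the log2 scale, beside −1.10 for its own level, and dd replicate 2 and ff replicate 1 lay almost level. The part of the pericyte genes in the change of Notch3 was not tested. On that scale 4.61% of all tested genes had both dd libraries below both ff libraries, as Notch3 did, and 77.1% had both above, as did the other 9 genes.

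**Figure D5:**
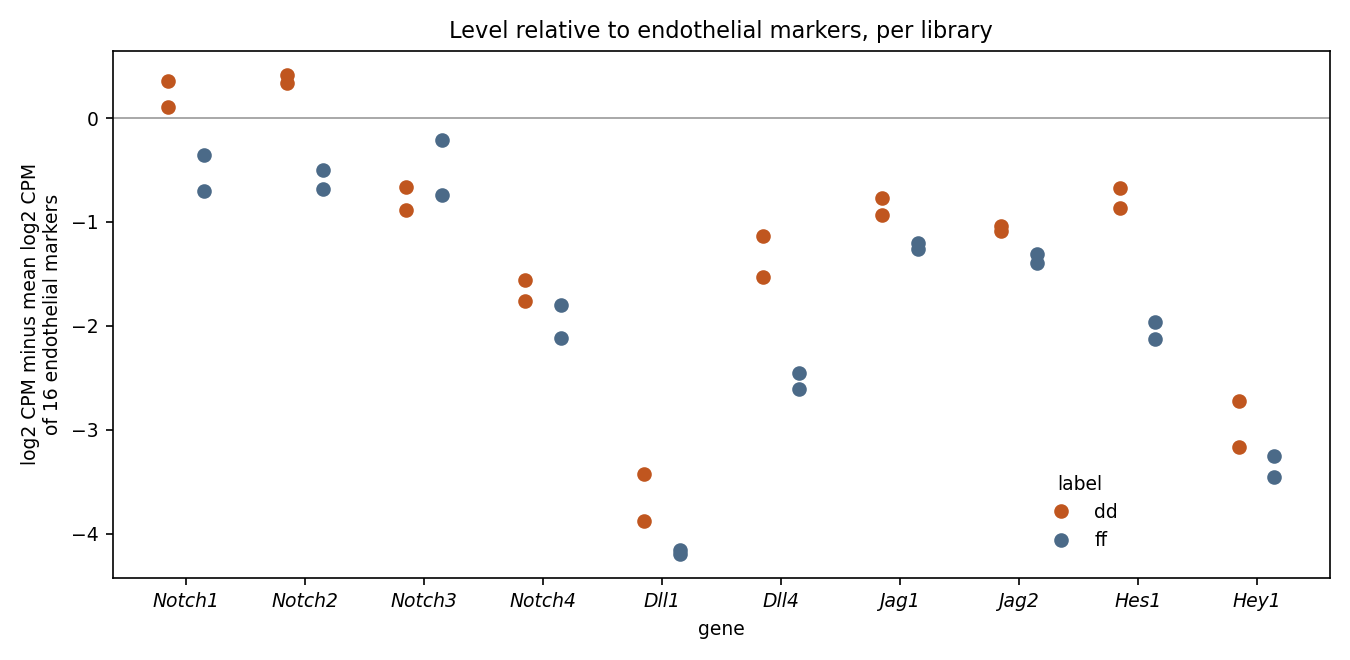
Log2 CPM of each Notch gene minus the mean log2 CPM of 16 endothelial markers (vertical axis) in the libraries labelled dd (orange, left of each pair) and ff (blue), 1 point per library. Notch3 overlaps between the groups, and Hes1 lies at −0.87 and −0.68 in dd against −2.12 and −1.96 in ff.

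Across the 4 libraries, the genes whose centred log2 CPM lay closest to that of Notch3, of 10536 protein-coding candidates, were Gbp9, Mcf2l and Sned1, at Euclidean distances of 0.0691, 0.169 and 0.181. Gbp9, a guanylate-binding protein gene, had 753 and 1094 counts in libraries labelled dd and 2102 and 2514 in those labelled ff. With 4 libraries, such likeness is a description.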

How the data were processed

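TRIzol-extracted total RNA went into Illumina TruSeq libraries, per the labels' protocols, after selection for poly-A, per the series design text. STAR, edgeR and build mm10 are named, without versions, per the submitters' processing notes. For the read counter, annotation and use of strand, nothing is given in the sources used here. The deposited table holds whole-number counts per gene, counts rescaled by the authors (a signal not tested here), FPKM per the file headers, the authors' fold (a ratio of dd over ff) and the authors' unadjusted p-value, whose test is not given. RPKM is the unit named by the series design text, FPKM the one in the file headers.

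Counts were compared with edgeR 4.0.16 in R 4.3.3 (TMM, filterByExpr, glmQLFit and glmQLFTest, all 4 libraries, no block, Benjamini-Hochberg adjustment over 18530 genes, threshold 0.05). SE and 95% intervals of log2 changes come from that fit. CPM is relative to the TMM-scaled library size. The fit was tested on simulated counts, and the outcome is not reported here. The alternatives tried were fits with a replicate block, with each library left out, 3 other scalings, 2 other filters, DESeq2 1.42.0, and limma 3.58.1 (limma-trend on log2(FPKM + 0.5)). A count of 3 equals 0.0901 to 0.127 CPM in these libraries. Replicates differed by more than counting noise (chi-square per degree of freedom 40.9 over 15638 genes in dd and 40.2 over 15964 in ff), so no pair was treated as a repeat deposit of 1 library. Positions and gene types come from GENCODE release M21, which is on mm10 and held all 54152 symbols. Promoters come from RefSeq (GRCm38.p6), where 8 of the 10 genes have an entry (all but Hes1 and Hey1), as do 13 of the 17 genes looked up, Mfng and Heyl being the others without one. Windows were cut to bases before both the RefSeq and the GENCODE start.

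The 10 genes and all lists were chosen with earlier results of these data known. Named by rule were the 10 genes, called pathway genes, the 2 genes with the highest mean CPM in each list, the 3 genes most like the one with the smallest p among those with a mean of at least 10 CPM, and Mapk14. The values of 1 gene that this rule names are not reported here. Other list genes, among them Hoxa11, Pofut1, Maml1, Maml2, Maml3, Hey2, Dner, Nrarp, Pdgfrb, Kcnj8, Abcc9, Higd1b, Cspg4, Des, Tagln and Cnn1, were named after their values were seen.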

Additional observations from a re-analysis of the deposited data

How the results depend on the processing

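Each of the 10 Notch genes kept the direction of its change under the replicate block, all scalings, both filters, DESeq2 and limma-trend. With 1 library left out this held for 9 of them, and Notch1 ran between −0.13 and 0.062 (0.062 without dd replicate 2, 0.05 without ff replicate 2). The count of the 10 genes called lower was 1 with the replicate block (Notch3), 1 with limma-trend, and 0 to 1 with a library left out. With DESeq2 1 was called higher, and Notch3, Jag1 and Jag2 lower (3). Under the block Jag2 had an adjusted p of 0.0671, and under limma-trend 0.0752. Same-numbered libraries shared almost no deviation from their group means (correlation across genes 0.013), and the labels do not say whether they were paired. The block is therefore read only as a change of fit. With it 653 genes were called lower and 878 higher. Leaving out a library left 28 to 472 of all genes called lower and 62 to 726 higher, in fits that assume that a lone library varies as the other group does. DESeq2 called 1417 lower and 1584 higher, and without a filter edgeR called 1363 lower and 1584 higher. Other pathway genes called lower were 10 without a filter and 0 to 4 with a library left out, and those called higher 0 to 1. With a library left out, marker calls were 1 to 12 endothelial, 0 to 2 pericyte and smooth muscle, 0 to 6 epithelial, 0 to 3 stromal and 0 to 3 macrophage. The log2 change of Dlk1 was −1.13 with limma-trend, whose pseudocount shrinks low genes, and it did not pass there (adjusted p = 0.107). The causes of lost calls were not tested.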

Other observations

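A processed pseudogene of Rbpj, Rbpj-ps3 (chromosome 6, 46529354 to 46530794, minus strand, inside Cntnap2 on the opposite strand), had its higher counts where Rbpj had its lower ones. It had 45 and 86 counts in the libraries labelled dd and 4 and 8 in those labelled ff. It entered the test through the counts in dd alone, so its counts are given without a test. The pseudogene was looked up after the change of Rbpj was seen. The sources used here do not give how reads shared by a gene and its near-identical copy were assigned, so both values are uncertain to that extent. The counts of Rbpj-ps3 are small beside the 1366 and 1145 counts of Rbpj in dd and the 4320 and 3921 in ff.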
